A study of Komagataella phaffii with 9 samples.

Results

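A group of 109 genes was expressed at higher levels both in a *Komagataella phaffii* strain that overexpressed *CRA1* and in a strain that lacked it, each set against the same control strain. *CRA1* encodes a transcription factor with sequence similarity to Gal4 of *Saccharomyces cerevisiae*, and the study examined its role in glucose metabolism. The genes were selected on the measured values themselves. Each had a mean of at least 20 estimated counts in 1 of the strains, stood higher in every OE and every KO library than in every Control library, and had ratios of mean CPM (counts scaled to a library sum of 1000000) to Control of at least 1.5 in both strains. The marker genes, the mitochondrial identifiers, *CRA1* with its chromosomal neighbours and a few further stretches had been set aside. The tables held 5344 sequences, of which 2155 passed the count minimum and were not set aside, so that the 109 genes made up 5.06% of them. Its OE side was met by 292 genes (13.5%) and its KO side by 499 genes (23.2%), and nothing is read from these shares because they come from the rule. Of the libraries, OE replicate 2 and Control replicate 1 limited the group most. Without OE replicate 2 the rule would have returned 263 genes, and without Control replicate 1 it would have returned 180.

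The OE strain carried an additional expression cassette for *CRA1*, and the KO strain carried a deletion of the gene (Δ*cra1*). All 3 strains, the Control included, derived from the wild type CBS7435 and carried an eGFP reporter gene. A single transformant represented each strain, with 3 shake flask cultures of 20 mL at 5 g L-1 glucose, harvested in exponential growth after a preculture with Zeocin. A property of the one Control transformant and an effect common to both altered strains therefore cannot be told apart, and the spread between libraries contains no difference between transformants.

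*K. phaffii* is a methylotrophic yeast that is widely used to secrete recombinant proteins. On glucose it normally respires rather than ferments, which makes it Crabtree-negative. Gal4-like factors belong to the fungal zinc cluster family, whose members bind DNA through a zinc-coordinated domain and switch on sets of metabolic genes. Genes that such a factor activates commonly move in opposite directions when the factor is added and when it is removed. Genes that did so could not be chosen here, because the rule required higher levels in both altered strains. The roles given below are those of the *S. cerevisiae* genes of the same name. No nucleotide sequence of the genes is shown.

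*CRA1* itself was at 3790, 829 and 2272 CPM in OE replicates 1, 2 and 3, at 0 CPM in the 3 KO libraries, and at 101, 101 and 103 CPM in Control. The libraries were shallow, and Control the shallowest, with total counts of 114609 to 213700 in OE, 193565 to 223824 in KO and 106345 to 108537 in Control. A single count was thus worth 4.68 to 8.73 CPM in OE, 4.47 to 5.17 CPM in KO and 9.21 to 9.40 CPM in Control. A gene with no count in a Control library could still have been present at up to 27.6 to 28.2 CPM, the value of 3 counts there, a limit that covers counting error only. The median count of the 109 genes over the libraries was 24 in OE, 35 in KO and 5 in Control, and for 10 genes every Control library held 3 counts or fewer. The kanamycin marker sequence of the KO strain was at 88.9, 87.3 and 115 CPM in the OE libraries and at 7501 to 8390 CPM in the KO libraries, with no count in Control.

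Summed over the 109 genes, every library of the altered strains was well above Control, as the rule entails, and the OE libraries were far apart. The genes took 3.72%, 1.72% and 2.43% of all counts in OE replicates 1, 2 and 3 and 2.24%, 2.71% and 2.77% in the KO libraries, against 0.885%, 0.782% and 0.895% in Control. Other features of the libraries moved with this sum. The share of counts on the mitochondrial identifiers, which the rule leaves out, was 0.446%, 0.0358% and 0.201% in OE, 0.130%, 0.282% and 0.267% in KO, and 0.0572%, 0.0378% and 0.0301% in Control. The 3128 sequences that stayed under the count minimum took 14.9%, 8.39% and 10.6% of the counts in OE, 9.22%, 10.7% and 11.1% in KO, and 7.95%, 7.39% and 7.78% in Control. Across the 9 libraries the share on these weakly counted sequences had the same order as the share on the 109 genes, from OE replicate 1 at the top to Control replicate 2 at the bottom, except that Control replicates 1 and 3 changed places. The mitochondrial share of OE replicate 2, in contrast, lay within the range of Control. The part that these library features have in the higher levels of the 109 genes was not tested.

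**Figure D1:**
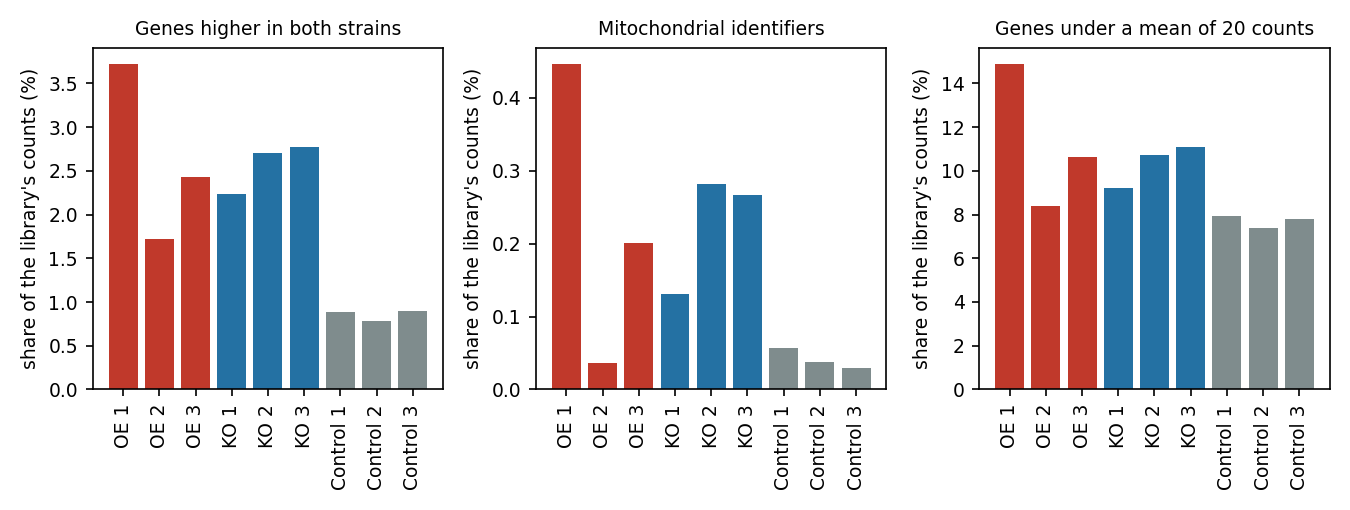
Share of each library's counts (%) on the 109 genes higher in both strains (left), on the mitochondrial identifiers (middle) and on the 3128 sequences under the count minimum (right), with 1 bar per library, OE in red, KO in blue and Control in grey. OE replicate 1 has the tallest bar in each panel, at 3.72%, 0.446% and 14.9%, while OE replicate 2 reaches 1.72%, 0.0358% and 8.39%.

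**Figure D2:**
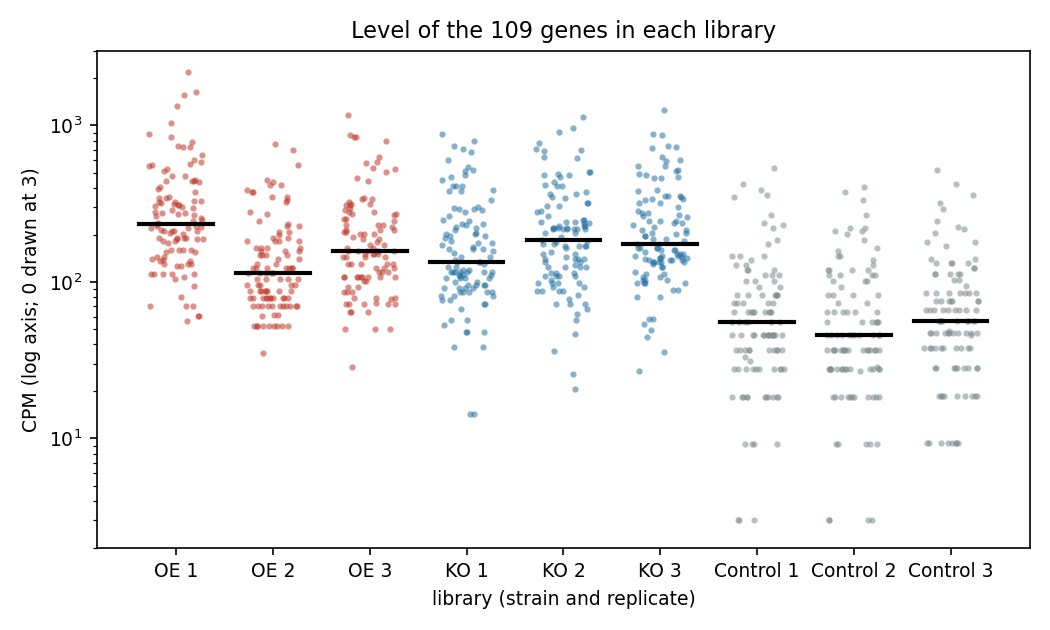
CPM of the 109 genes in each of the 9 libraries on a log axis, with 1 point per gene and a black bar at the median. The medians are 234, 113 and 158 CPM in OE, 134, 186 and 174 CPM in KO, and 55.3, 46.1 and 56.4 CPM in Control, and points at 0 are drawn at 3.

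The ratio of mean CPM to Control ranged from 1.60 to 52.0 in OE, with a median of 3.34, and from 1.64 to 17.5 in KO, with a median of 3.0. In OE 90 of the genes had a ratio of 2 or more, and in KO 91 did. The OE ratio was the larger one for 62 genes and the KO ratio for 47. The high end of the range belonged to genes with hardly any counts in Control. When each Control library was held at no less than 3 counts, the highest ratios were 11.3 in OE and 16.7 in KO. With that limit 2 genes no longer reached 1.5 in KO, *NNK1* with a ratio of 0.741 and *HRT3* with 1.02. Over all 2155 genes the median ratio was 0.955 in OE and 1.10 in KO. With library totals rescaled by TMM factors these medians became 0.883 and 0.967, and those of the 109 genes 3.0 in OE and 2.64 in KO. The rule returned 87 genes on that scale, 86 of them among the 109.

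At the limit of the rule the 3 genes just inside had no name. PP7435_Chr2-0438 had ratios of 1.60 in OE and 2.28 in KO, PP7435_Chr3-0277 of 1.61 and 1.81, and PP7435_Chr2-0629 of 1.78 and 1.64. Just outside, PP7435_Chr3-0303 had ratios of 2.29 in OE and 1.45 in KO, PP7435_Chr4-0612 of 2.90 and 1.45, and *GLR1*, encoding glutathione reductase, of 1.43 and 2.47. In all, 11 genes met every criterion except the ratio. The genes just inside were among the better counted ones, and their values lay close to those outside.

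With each Control library held at no less than 3 counts, the gene with the largest smaller ratio to Control had no name. PP7435_Chr2-0578, described as a protein with weak similarity to acyl-CoA thioesterases, was at 1334, 244 and 633 CPM in OE and at 886, 1126 and 1251 CPM in KO, against 64.5, 55.3 and 75.2 CPM in Control. Its levels in both strains were far above Control, which rested on 6 to 8 counts per library, and the OE and KO libraries overlapped. The mean ratios were 11.3 in OE and 16.7 in KO, and the same with that limit. The fitted log2 fold changes over Control were 3.78 (SE 0.71) in OE and 3.95 (SE 0.24) in KO. The next identifier on chromosome 2 belongs to *AXL2*, another of the 109 genes. *AXL2* encodes a plasma membrane protein needed for axial budding and was at 243, 192 and 144 CPM in OE, at 225, 243 and 340 CPM in KO and at 83.0, 120 and 75.2 CPM in Control.

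Amino acid metabolism was the list with the most members and also the list with the most genes. Of 40 listed genes of amino acid metabolism with enough counts, 9 were among the 109 (22.5%), where the whole table of annotated genes gave 72 of 613 (11.7%). The study annotated only genes that had changed in at least 1 of its comparisons, so none of these list shares stands for the genome. The 9 included *CPS1*, a peptidase gene, and *PLB3*, a phospholipase gene, and the lists of cell wall (23.8%), vacuole (24%) and translation (25%) had similar shares. *MEP1*, an ammonium permease of the transporter list, was at 328, 96.0 and 280 CPM in OE and at 249, 305 and 246 CPM in KO, against 36.9, 46.1 and 56.4 CPM in Control. The dicarboxylic amino acid permease gene *DIP5-1* was at 735, 140 and 273 CPM in OE, at 235, 377 and 340 CPM in KO and at 111, 55.3 and 103 CPM in Control. For both transporters OE replicate 2 was the lowest of the altered strains' libraries, and it still exceeded every Control library.

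Among the biosynthetic enzymes, *ARG5,6*, which encodes a pair of mitochondrial enzymes of arginine synthesis, was at 445, 78.5 and 309 CPM in OE, at 153, 222 and 237 CPM in KO and at 46.1, 46.1 and 56.4 CPM in Control. Its ratios were 5.60 in OE and 4.12 in KO. *MET17*, whose product makes homocysteine from sulfide, was at 1044, 375 and 503 CPM in OE and at 230, 217 and 286 CPM in KO, against 46.1, 64.5 and 122 CPM in Control. Here the strains did not overlap at all, with OE highest. *MET3*, encoding ATP sulfurylase at the start of sulfate assimilation, was at 847, 166 and 201 CPM in OE, 172, 227 and 143 CPM in KO and 120, 46.1 and 141 CPM in Control. Its lowest KO library exceeded the highest Control library by less than the worth of a single count, and OE replicates 2 and 3 lay within the KO range.

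The lysine genes *LYS1* and *LYS2*, the *ARO1* gene of the shikimate pathway and the purine genes *ADE2* and *ADE17* also belonged to the group, and these are named after their values had been seen. *LYS1*, for the last step of lysine synthesis, was at 374, 105 and 144 CPM in OE and at 86.2, 87.8 and 89.4 CPM in KO, against 18.4, 18.4 and 47.0 CPM in Control. *ARO1* was at 323, 69.8 and 216 CPM in OE, at 81.5, 62.0 and 80.4 CPM in KO and at 55.3, 18.4 and 9.40 CPM in Control. The KO values of both genes were tightly grouped, whereas their OE values were spread over a wide range. *CPS1*, a vacuolar carboxypeptidase that releases amino acids from peptides, was at 309, 52.4 and 158 CPM in OE, at 129, 139 and 147 CPM in KO and at 27.7, 36.9 and 37.6 CPM in Control.

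**Figure D3:**
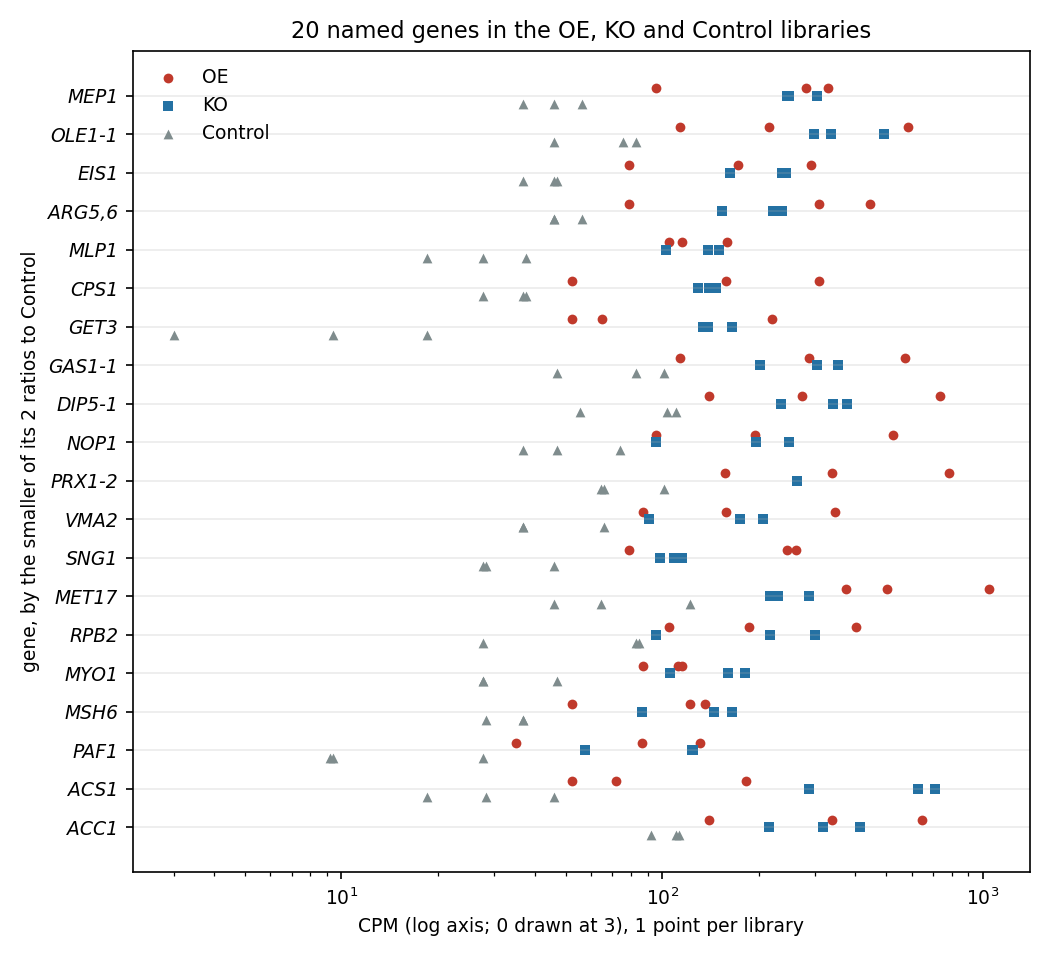
CPM (log axis) of the 20 named genes with the largest smaller ratio to Control, with 1 point per library, OE as red circles, KO as blue squares and Control as grey triangles. Every OE and KO point lies right of the Control points of its gene, as the rule requires, and the OE points of a gene such as *DIP5-1* (140 to 735 CPM) spread more widely than its KO points (235 to 377 CPM).

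Components of the transcription and translation machinery were a further part of the group. The 2 largest subunits of RNA polymerase II were both included. *RPO21* was at 449, 122 and 201 CPM in OE, at 206, 217 and 277 CPM in KO and at 83.0, 82.9 and 113 CPM in Control, and *RPB2* was at 402, 105 and 187 CPM in OE, at 95.8, 217 and 299 CPM in KO and at 83.0, 27.6 and 84.6 CPM in Control. Both were highest in OE replicate 1 and lay in OE replicate 2 only slightly above the upper Control value. *RET1*, the second-largest subunit of RNA polymerase III, was evenly high in OE, at 323, 227 and 295 CPM, against 71.9, 93.0 and 98.3 CPM in KO and 46.1, 27.6 and 37.6 CPM in Control. With these, 3 of 14 listed genes of basal transcription were in the group, counting here and below only listed genes with enough counts. *PAF1*, encoding a transcription elongation factor, was at 131, 34.9 and 86.3 CPM in OE and at 57.5, 124 and 125 CPM in KO, against 27.7, 9.21 and 9.40 CPM in Control, where it had 5 counts in all.

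The ribosomal protein genes held some of the highest levels in the group. Of 19 listed, 3 were members. *RPP0*, the stalk protein of the large subunit, was at 2195, 419 and 1165 CPM in OE and at 484, 961 and 742 CPM in KO, against 350, 332 and 320 CPM in Control, and had the highest mean CPM of all 109 genes. *RPS8A* was at 1558, 384 and 791 CPM in OE, at 383, 620 and 603 CPM in KO and at 360, 267 and 141 CPM in Control. *RPS25A* was at 884, 209 and 532 CPM in OE, at 220, 217 and 380 CPM in KO and at 147, 203 and 113 CPM in Control. For these 3 genes OE replicate 2 came close to Control, and the lowest values of *RPS8A* and *RPS25A* passed the highest Control value by a few counts at most. *NOP1*, the methylase that modifies ribosomal RNA, was at 524, 96.0 and 194 CPM in OE, at 95.8, 248 and 197 CPM in KO and at 73.7, 36.9 and 47.0 CPM in Control. *STM1*, which binds ribosomes under nutrient stress, was at 562, 183 and 316 CPM in OE, at 163, 238 and 197 CPM in KO and at 147, 64.5 and 103 CPM in Control. The other member of the translation list, the methyltransferase gene *EFM3*, was nearly absent in Control with 5 counts in all, and had 26 counts in OE and 75 in KO.

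Genes for proteins of chromatin, nucleus and cell division were also in the group. Of 24 listed genes of chromatin and DNA, 2 were members. The linker histone gene *HHO1* was at 108, 52.4 and 79.1 CPM in OE and at 120, 170 and 206 CPM in KO, against 0, 36.9 and 18.8 CPM in Control. *MSH6*, which recognises mismatched bases, was at 136, 52.4 and 122 CPM in OE, at 86.2, 145 and 165 CPM in KO and at 36.9, 36.9 and 28.2 CPM in Control. *MLP1*, a long filament protein of the nuclear pore basket, was at 159, 105 and 115 CPM in OE, at 139, 150 and 103 CPM in KO and at 27.7, 18.4 and 37.6 CPM in Control, with the OE and KO values interleaved. The splicing factor gene *PRP19*, in contrast, was higher in every KO library than in any OE library, and stood at 70.2, 96.0 and 71.9 CPM in OE, at 201, 176 and 268 CPM in KO and at 18.4, 9.21 and 65.8 CPM in Control. The zinc finger gene *RME1*, a regulator of meiosis, was at 60.8, 78.5 and 108 CPM in OE, at 71.9, 155 and 147 CPM in KO and at 36.9, 27.6 and 9.40 CPM in Control. In cell division and budding, 4 of 23 listed genes were members. Of these, the myosin gene *MYO1* of the cytokinetic ring was at 112, 87.3 and 115 CPM in OE, at 105, 181 and 161 CPM in KO and at 27.7, 27.6 and 47.0 CPM in Control. *LTE1*, a regulator of mitotic exit, was at 70.2, 69.8 and 101 CPM in OE, at 91.0, 124 and 206 CPM in KO and at 9.22, 36.9 and 37.6 CPM in Control.

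Several enzymes of acetyl-CoA and lipid metabolism were higher in both strains. *ACC1*, encoding acetyl-CoA carboxylase, the committed step of fatty acid synthesis, was at 646, 140 and 338 CPM in OE and at 216, 413 and 317 CPM in KO, against 111, 92.1 and 113 CPM in Control. The fatty acid desaturase gene *OLE1-1* was at 585, 113 and 216 CPM in OE, at 297, 491 and 335 CPM in KO and at 83.0, 46.1 and 75.2 CPM in Control. For both genes the OE and KO libraries overlapped. *ACS1*, whose product activates acetate to acetyl-CoA, was much higher in KO, with 182, 52.4 and 71.9 CPM in OE, 287, 708 and 625 CPM in KO and 46.1, 18.4 and 28.2 CPM in Control. *IFA38*, a reductase in the elongation of very long fatty acids, had the same order of strains, with 145, 157 and 115 CPM in OE, 508, 367 and 353 CPM in KO and 46.1, 111 and 47.0 CPM in Control. The phospholipase gene *PLB3*, which was not called between the strains (log2 fold change 1.46, SE 0.51, adjusted p = 0.0674 by edgeR), was at 276, 69.8 and 86.3 CPM in OE, 67.1, 56.8 and 53.6 CPM in KO and 36.9, 27.6 and 18.8 CPM in Control. The list of lipid metabolism had 3 members of 19 listed genes, and that of carbon metabolism had *ACS1* as its only member of 23.

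The cell surface supplied 5 of 21 listed cell wall genes and some that are in no list. *GAS1-1*, a glucanosyltransferase that builds the cell wall, was at 571, 113 and 288 CPM in OE and at 201, 305 and 353 CPM in KO, against 101, 82.9 and 47.0 CPM in Control. *PSA1-1*, which makes the GDP-mannose used for glycoprotein mannose chains, was at 510, 183 and 280 CPM in OE, at 168, 227 and 214 CPM in KO and at 129, 73.7 and 75.2 CPM in Control. *SCW10*, encoding a glucanase-like wall protein, was lower in every OE library than in every KO library, with 267, 148 and 165 CPM in OE, 383, 408 and 469 CPM in KO and 92.2, 138 and 75.2 CPM in Control. *EIS1*, a component of eisosomes, the furrow-like domains of the plasma membrane, was at 290, 78.5 and 173 CPM in OE, at 163, 243 and 237 CPM in KO and at 46.1, 36.9 and 47.0 CPM in Control. The lectin-like gene *FLO400* had the largest difference in favour of KO, at 79.6, 69.8 and 64.7 CPM in OE and 292, 408 and 518 CPM in KO, against 27.7, 27.6 and 18.8 CPM in Control. The water channel gene *AQY1* was at 393, 113 and 201 CPM in OE, at 91.0, 108 and 125 CPM in KO and at 73.7, 27.6 and 75.2 CPM in Control.

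The vacuole and the secretory route contributed 6 of 25 and 3 of 21 listed genes. The lists share genes, so their counts are not separate contributions. *GEA2* is in both of these and in that of actin and tubulin, and *MYO1* is also in that of the secretory route. *SIT4* is in the lists of cell wall, cell division, actin and tubulin, and kinases and phosphatases. *VMA2*, a subunit of the proton pump that acidifies the vacuole, was at 346, 87.3 and 158 CPM in OE, at 91.0, 207 and 174 CPM in KO and at 36.9, 36.9 and 65.8 CPM in Control. *ZRT3*, which exports zinc from the vacuole, was at 328, 445 and 582 CPM in OE and at 800, 904 and 876 CPM in KO, against 184, 212 and 226 CPM in Control, and unlike most of the genes it was lowest in OE replicate 1. The next 3 genes had their highest value in OE replicate 1. *VPS70-1*, involved in vacuolar sorting, was at 304, 78.5 and 158 CPM in OE, at 115, 139 and 139 CPM in KO and at 55.3, 55.3 and 18.8 CPM in Control. *CLG1*, encoding a cyclin-like protein, was at 346, 131 and 216 CPM in OE, at 86.2, 87.8 and 156 CPM in KO and at 83.0, 36.9 and 65.8 CPM in Control. *GET3*, whose product inserts tail-anchored proteins into the endoplasmic reticulum, was at 220, 52.4 and 64.7 CPM in OE, at 134, 165 and 139 CPM in KO and at 0, 18.4 and 9.40 CPM in Control. Its 3 counts in all of Control gave a ratio of summed counts of 14.3 in OE (95% exact counting interval 4.67 to 71.2) and of 15.7 in KO (5.19 to 77.4). Such an interval covers counting error only and contains no spread between flasks. *GEA2*, which activates a small GTPase of Golgi transport, was at 131, 52.4 and 50.3 CPM in OE, at 196, 243 and 201 CPM in KO and at 27.7, 27.6 and 9.40 CPM in Control.

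The *SLA2-1* and *SLA2-2* genes, adaptors between actin and endocytic vesicles, are counted as separate members but were the only ones of the 109 with estimated counts that were not whole, which shows that reads were divided between them. *SLA2-1* was at 139, 60.9 and 77.7 CPM in OE, at 116, 194 and 145 CPM in KO and at 33.2, 28.4 and 48.3 CPM in Control. The values of *SLA2-2* ran nearly in parallel, from 52.6 to 105 CPM in OE, from 109 to 183 CPM in KO and from 26.9 to 45.7 CPM in Control, and the pair amounts to a single measurement. In the mitochondrial list, 3 of 35 genes were members. The peroxiredoxin gene *PRX1-2* was at 781, 157 and 338 CPM in OE and at 264, 263 and 264 CPM in KO, against 101, 64.5 and 65.8 CPM in Control, while the phosphate carrier gene *PIC2* was at 211, 279 and 252 CPM in OE and at 546, 506 and 487 CPM in KO, against 147, 120 and 179 CPM in Control. These are nuclear genes, and neither was called between OE and KO, for unlike reasons. *PRX1-2* had a log2 fold change of 0.85 (adjusted p = 0.189 by edgeR), and its libraries overlapped. *PIC2* had -0.93 (adjusted p = 0.0263 by edgeR), with every OE library below every KO library, and missed only the fold limit.

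Of the signalling genes, 3 of 21 listed protein kinases and phosphatases (14.3%) and 1 of 15 genes of ubiquitin and the proteasome were members. *SIT4*, a phosphatase of the cell cycle and nutrient response, was at 192, 87.3 and 108 CPM in OE, at 192, 170 and 165 CPM in KO and at 55.3, 36.9 and 84.6 CPM in Control. Its partner *SAP190* was at 192, 87.3 and 173 CPM in OE, at 86.2, 87.8 and 49.1 CPM in KO and at 18.4, 36.9 and 28.2 CPM in Control. The protein kinase gene *NNK1* was at 187, 122 and 180 CPM in OE and at 14.4, 20.7 and 26.8 CPM in KO, against 0, 0 and 9.40 CPM in Control. *NNK1* had 13 counts in KO and 1 in Control, so that its ratio of summed counts in KO, 6.71, had a counting interval of 1.01 to 285. The F-box gene *HRT3*, of a ubiquitin ligase, was at 136, 113 and 230 CPM in OE, at 14.4, 25.8 and 44.7 CPM in KO and at 9.22, 0 and 9.40 CPM in Control. For *HRT3* the ratio in KO was 4.65 (1.11 to 41.3), from 18 counts in KO and 2 in Control. Both genes thus met the KO side of the rule on very few counts. They were not the only members with weak counts. The KO intervals of PP7435_Chr1-0725 (0.917 to 5.79) and PP7435_Chr1-0040 (0.868 to 4.89) included 1. An unannotated member had an OE interval of 0.919 to 4.17, which also included 1. In the remaining lists the group held 4 of 27 membrane transporters, 4 of 18 genes of actin and tubulin, 2 of 22 gene-specific transcription factors, 2 of 8 genes of translation and tRNA, 1 of 16 genes of ribosome synthesis, 1 of 14 genes of splicing and mRNA processing, 0 of 17 genes of protein folding and glycosylation and 0 of 4 iron genes.

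Of the 109 genes, 62 had a gene name and a further 10 only a description, and 37 were not in the annotated table. Among the unnamed ones, PP7435_Chr1-0138, with weak similarity to a yeast spore wall assembly protein, was at 234, 87.3 and 64.7 CPM in OE and at 52.7, 186 and 143 CPM in KO, against 18.4, 18.4 and 28.2 CPM in Control. PP7435_Chr4-1653, a possible transcriptional regulator, was at 154, 349 and 316 CPM in OE, at 680, 625 and 554 CPM in KO and at 73.7, 55.3 and 56.4 CPM in Control. It was lowest in OE replicate 1, as was *ZRT3*. PP7435_Chr2-2628 and PP7435_Chr2-0629, which were not annotated, belonged to the genes with the highest mean CPM. PP7435_Chr2-2628 was at 1624, 558 and 841 CPM in OE, at 604, 770 and 871 CPM in KO and at 535, 405 and 423 CPM in Control. PP7435_Chr2-0629 was the most even of them, at 730, 759 and 863 CPM in OE, at 743, 697 and 728 CPM in KO and at 424, 378 and 517 CPM in Control.

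The rule did not compare OE with KO, but it used the values of both strains, through the level above Control and the count minimum. The minimum of 20 was met in both strains by 72 genes, only in OE by 12 and only in KO by 25, and genes of the last 2 kinds had to differ to some extent in counts. The comparison of the strains is therefore a description of the chosen genes, and its p-values do not account for the choice. All 109 entered the fit, edgeR's quasi-likelihood test over 3071 sequences with Benjamini-Hochberg adjustment. Calls required an adjusted p under 0.05 together with an absolute log2 fold change of 1 or more. Of the 109 genes, 11 were called higher in OE (10.1%, against 9.80% of all sequences tested) and 8 were called lower in OE (7.34%, against 5.67%). Of the 11 genes, 8 met the count minimum only in OE, and of the 8 genes, 5 met it only in KO, which leaves 3 called higher and 3 called lower among the 72 genes that met it in both strains. The shares near those of all sequences are no result about the 109 genes. A further 90 genes were not called, which does not show that their levels were alike. The median log2 fold change of the 109 genes, OE over KO, was 0.25, with quartiles of -0.28 and 0.76 and a median SE of 0.40, and that of all sequences tested was 0.08, with quartiles of -0.43 and 0.65. By the libraries themselves, 9 genes had every OE library above every KO library (8.26%, against 15.1% of the 2155 genes), 18 had every OE library below every KO library (16.5%, against 30.3%), and 82 overlapped.

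OE replicate 1 had a large part in this comparison. Without it the median log2 fold change of the 109 genes turned to -0.18, with 7 genes called higher and 12 called lower in OE. Without OE replicate 2, 26 genes were called higher in OE and 10 lower, and the median was 0.30. Without OE replicate 3 the counts were 8 higher and 4 lower, and leaving out 1 KO library gave 5 to 7 genes called higher and 5 called lower. The shares of all sequences called in these fits are not given here, so nothing about the 109 genes is read from the counts.

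The genes called higher in OE began with those that had few counts in KO and met the count minimum only in OE. *NNK1* had a log2 fold change of 3.08 (SE 0.46, adjusted p = 0.000342 by edgeR), *HRT3* of 2.59 (SE 0.50, adjusted p = 0.00258) and the lipase gene *MIL1* of 2.19 (SE 0.38, adjusted p = 0.00119). *MIL1* was at 206, 166 and 230 CPM in OE, at 47.9, 36.2 and 58.1 CPM in KO and at 9.22, 9.21 and 28.2 CPM in Control. PP7435_Chr1-0725, with a domain found in transposon-derived endonucleases, followed with a log2 fold change of 2.13 (adjusted p = 0.00266), at 220, 192 and 151 CPM in OE, 38.3, 67.2 and 35.7 CPM in KO and 18.4, 27.6 and 18.8 CPM in Control. *RET1* had 1.82 (SE 0.31, adjusted p = 0.00114) and PP7435_Chr1-0040 had 1.73 (SE 0.43, adjusted p = 0.0129). In each of these 6 genes every OE library was above every KO library, and each met the count minimum only in OE. The other genes called higher in OE were *ARO1* with 1.59, *MET17* with 1.53, *LYS1* with 1.41, *AQY1* with 1.29 and *CLG1* with 1.22, and of these *MET17*, *AQY1* and *CLG1* met the minimum in both strains. Of the 9 members of the amino acid list 3 were called higher in OE, beside 27 of all 43 listed genes tested. *ARO1*, *AQY1* and *CLG1* each lost the call in 5 of the 6 fits that left out 1 library, all but the one without OE replicate 2, *MET17* lost it without KO replicate 2, and PP7435_Chr1-0040 lost it in 3, without OE replicate 3, KO replicate 1 or KO replicate 2. Without OE replicate 1, *LYS1* had a log2 fold change of 0.66 (adjusted p = 0.26 by edgeR) and was no longer called, and it also lost the call without any 1 of the KO libraries.

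Among the genes called lower in OE, *FLO400* had the largest difference, with a log2 fold change of -2.35 (SE 0.33, adjusted p = 0.000239 by edgeR), and *ACS1* followed with -2.17 (SE 0.44, adjusted p = 0.00352). *IFA38* had -1.42 (SE 0.30, adjusted p = 0.00539) and PP7435_Chr3-1103, with weak similarity to carbohydrate kinases, had -1.41 (SE 0.30, adjusted p = 0.00566). PP7435_Chr3-1103 was at 182, 209 and 158 CPM in OE, at 704, 434 and 460 CPM in KO and at 111, 120 and 84.6 CPM in Control. *PRP19* had -1.32 (adjusted p = 0.0224) and *PRM10-2*, a pheromone-regulated membrane protein, had -1.29 (adjusted p = 0.00864), at 112, 131 and 108 CPM in OE, 335, 284 and 322 CPM in KO and 73.7, 46.1 and 56.4 CPM in Control. *GEA2* with -1.24 (adjusted p = 0.049) and PP7435_Chr4-1653 with -1.07 (adjusted p = 0.0334) were the others. *GEA2* lost the call in 9 of 14 other settings, DESeq2 (adjusted p = 0.0641) and the fits without OE replicate 3 or any 1 KO library among them. PP7435_Chr4-1653 lost it without any 1 library other than OE replicate 2, *PRP19* without OE replicate 3 or any 1 KO library, and *PRM10-2* without OE replicate 3 or KO replicate 1. *FLO400*, *ACS1*, *GEA2*, *PRP19* and *PRM10-2* met the count minimum only in KO. In all 8 the libraries of OE and KO were apart, and those of OE, although lower than KO, were still above Control.

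**Figure D4:**
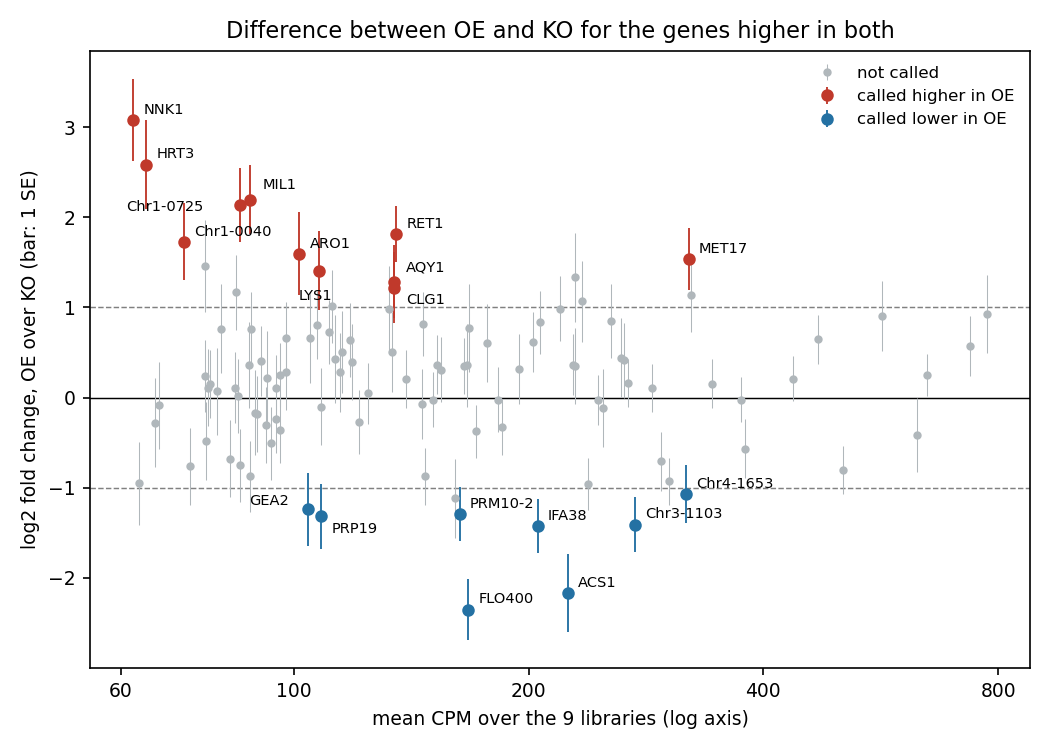
Log2 fold change of OE over KO with 1 SE for each of the 109 genes against its mean CPM over the 9 libraries (log axis), with the 11 genes called higher in OE in red, the 8 called lower in OE in blue and the others in grey. The called genes range from 3.08 (*NNK1*) to -2.35 (*FLO400*), and those called higher sit mostly at the low end of the CPM axis.

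Within the OE strain the 109 genes differed between the replicate cultures in a common order. The rule used these values, since each OE library had to exceed Control and the deep OE replicate 1 weighed most in the mean count, so the order is a description of the chosen genes. In 69 of them (63.3%) the CPM was highest in OE replicate 1, next in OE replicate 3 and lowest in OE replicate 2, an order seen in 559 of the 2155 genes (25.9%). The median ratio of OE replicate 1 to OE replicate 2 was 2.20 over the 109 genes and 0.829 over all 2155, and that of OE replicate 3 to OE replicate 2 was 1.39 and 1.02. *CRA1* had the same order, with a ratio of 4.57 between OE replicates 1 and 2, and so had the total count of the libraries and the mitochondrial share. These cannot be told apart with 3 libraries. OE replicate 2, the lowest in 79 of the 109 genes, was the library that had to exceed Control for a gene to be chosen. In KO no order prevailed as clearly. The most frequent orders were replicate 3 above 2 above 1 with 33 genes (30.3%, against 18.7% of all genes) and replicate 2 above 3 above 1 with 32 genes (29.4%, against 17.3%), so that KO replicate 1 was mostly the lowest. The median ratio of the highest to the lowest library was 2.38 in OE, 1.51 in KO and 1.87 in Control over the 109 genes, and 1.78, 1.36 and 1.43 over all genes.

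By position, the genes were spread over the genome. Chromosomes 1, 2, 3 and 4 held 33, 25, 24 and 27 of them (30.3%, 22.9%, 22.0% and 24.8%), beside 29.8%, 25.8%, 24.1% and 20.1% of all 2155 genes. On 5 occasions 2 members had consecutive identifiers, among them PP7435_Chr2-0578 with *AXL2*, *PRX1-2* with *RME1* and *DIP5-1* with PP7435_Chr4-0711. The number of such pairs was not set against all genes, so nothing is read from it. The median coding length was 1617 bases, with quartiles of 1095 and 2511, against 1299 bases with quartiles of 862 and 1948 for all 2155 genes. Coding sequences of 3000 bases or more made up 21 of the 109 genes (19.3%) and 9.37% of all genes, with *ACC1* (6705 bases), *MYO1* (5403 bases), *RPO21* (5232 bases) and *MLP1* (5067 bases) among them. In Control the median level per length was 17.2 TPM over the members and 126 TPM over all 2155 genes. The rule used the Control level, and a low one helped a gene to be chosen. The part of coding length in the result was not tested.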

How the data were processed

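RNA from 9 shake flask cultures, 3 each of the OE, KO and Control strains, was poly(A)-enriched and sequenced. The submitters' processing notes name SAMtools 1.5, Picard 2.17.3-3, Trim Galore 0.4.2, FastQC 0.11.2 and kallisto 0.44.0. The authors sorted and split the reads, trimmed them, assigned them with kallisto to the annotated CBS7435 transcripts, and deposited kallisto's estimated counts and TPM per library, without scaling between libraries. The lengths in these tables are coding lengths. A strand setting is not given in the sources used here, so overlapping genes cannot be separated. Normalized count tables per strain pair, also deposited, were not used.

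CPM were computed from the estimated counts and library sums. For the tests, counts were rounded and fitted with edgeR 4.0.16 in R 4.3.3 (filterByExpr, TMM, quasi-likelihood test, Benjamini-Hochberg adjustment over all sequences tested), for OE against KO over those 6 libraries. Fits against Control, which 62 (OE) and 96 (KO) of the 109 genes entered after filtering, gave fold changes and SE only, because the rule used these contrasts. The script was checked on simulated counts for OE over KO. Of 96 genes given an absolute log2 change of 1, 29 were called (30.2%). Of 97 genes given a change of 2, 80 were called (82.5%), and of 2724 unchanged genes 5 were. Counting intervals are exact binomial, on counts summed over the libraries of a strain, and leave out the spread between flasks. P-values measure the spread between flasks of 1 transformant.

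The members, the 21 functional lists (423 of 713 annotated genes) and the tests were chosen with earlier results of these data known. Names and lists come from the study's annotation of genes past its cutoffs, of which only identifier, name, description and category were read. The columns with the authors' comparisons there were not read. None of the 109 identifiers (0) matched the RefSeq table. Named are *CRA1*, the 20 named and 5 unnamed genes with the largest smaller ratio to Control (Control held at 3 counts per library), the 6 largest calls in each direction, up to 4 per list by mean CPM, the 5 with the highest mean CPM, and 3 genes on each side of the 1.5 limit. Alternatives were RLE factors, library totals, other count filters, DESeq2 1.42.0, limma 3.58.1 on log2(TPM + 1) and log2(TPM + 0.1), 1 fit over 9 libraries, the replicate number as a block, other limits or scales of the rule, and each library left out. Groups of 3 are too small for a test of outliers.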

Additional observations from a re-analysis of the deposited data

Results flagged for a closer look

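The kanamycin marker sequence, which belongs to none of the comparisons, was counted in the OE libraries at 88.9 CPM (replicate 1), 87.3 CPM (replicate 2) and 115 CPM (replicate 3), from 19, 10 and 16 counts, whereas the Control libraries had none. The KO libraries had 8390, 7884 and 7501 CPM. Its bearing on the 109 genes was not tested.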

How the results depend on the processing

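The rule returned 109 genes. It returned 87 with TMM-scaled CPM (86 shared), 158 with the deposited TPM (107 shared), 80 with a limit of 2, 41 with a mean count of 50 or more, 193 with a mean count of 10 or more, and 109 to 263 when 1 library was left out, where 100 to 109 of the genes were shared. The 11 genes called higher in OE than in KO became 7 with library totals only, 1 with a mean of 50 or more counts (32 members tested), 3 with limma on log2(TPM + 1) and 2 on log2(TPM + 0.1), and 5 to 26 with 1 library left out. The 8 called lower became 2 with a mean of 50 or more counts, 3 and 2 with limma, and 4 to 12 with 1 library left out. RLE factors gave 11 and 8, and DESeq2 10 and 7. With the replicate block 7 were called higher and 5 lower, and the median was 0.20. The shares of all sequences called under these settings are not given, so nothing about the 109 genes is read from the counts. The main fit did not take the replicate numbers as pairs. The deviations of OE and KO libraries of the same number correlated at r = -0.445, -0.183 and -0.002, and those of KO and Control at -0.103, -0.016 and -0.009. Among the KO libraries, OE replicate 1 correlated best with KO replicate 3. Those of OE and Control of the same number correlated at 0.172, 0.177 and 0.057, where the other OE and Control pairs were all negative. The deviations were taken from the mean of each strain and cancel within it. Positive values for some pairs therefore bring negative ones for others, and nothing is read from this contrast. Whether the numbers pair OE with Control was not tested. The median log2 fold change of 0.25 kept its sign under the other settings, at 0.057 to 0.41, and ranged from -0.18 to 0.30 with 1 library left out, negative without OE replicate 1. Library totals in place of TMM moved the median of all sequences from 0.08 to -0.05.

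Of the comparisons of single genes, none of those called changed sign. Those called higher stayed called 105 times and lost the call 50 times, and those called lower 83 and 33 times. *NNK1*, *FLO400*, *IFA38* and PP7435_Chr1-0725 stayed called wherever they were tested. Genes not called changed sign 50 times and were called 24 times, and the causes were not tested. In 1 fit over all 9 libraries *MEP1* had 0.069, *EIS1* 0.030, *OLE1-1* 0.0042, PP7435_Chr3-0277 0.045 and *PAF1* 0.0049. With library totals only PP7435_Chr1-0099 had -0.062 and *MLP1* -0.0085, and without a filter PP7435_Chr1-0099 had -0.016. With limma on log2(TPM + 1) and log2(TPM + 0.1), PP7435_Chr1-0099 had -0.029 and -0.030, *GAS1-1* -0.036 and -0.039, *RPO21* -0.0041 and -0.0083 and *MLP1* -0.0065 and -0.0069. With a mean of 50 or more counts *OLE1-1* had 0.22 and PP7435_Chr3-0277 0.21. With 1 library left out the ranges that crossed 0 were -0.24 to 0.50 for PP7435_Chr1-0099, -0.59 to 0.54 for PP7435_Chr1-0138, -0.33 to 0.69 for *GAS1-1*, -0.30 to 0.77 for PP7435_Chr1-0488, -0.22 to 0.75 for *ACC1*, -0.31 to 0.28 for *MEP1*, -0.58 to 0.22 for *EIS1*, -0.31 to 0.71 for *RPB2*, -0.43 to 0.057 for *MSH6*, -1.0 to 0.22 for *OLE1-1*, -0.18 to 0.80 for *VMA2*, -0.19 to 0.055 for PP7435_Chr3-0277, -0.36 to 0.59 for *RPO21*, -0.56 to 0.20 for *PAF1*, -0.21 to 0.86 for *CPS1*, -1.14 to 0.11 for *GET3*, -0.085 to 0.17 for *MLP1*, -0.44 to 0.78 for *DIP5-1* and -0.13 to 1.12 for *NOP1*. The depth of Control, with a median of 5 to 6 counts per gene in a library, limits every ratio to it.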
